A study of Mus musculus with 22 samples.

Results

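The 9 genes described here encode transcription factors that set up the pancreas and keep acinar cells acinar: Ptf1a, Rbpjl, Bhlha15, Nr5a2, Hnf4a, Gata4, Gata6, Foxa2 and Pdx1. They were taken from the probe names of a targeted RNA assay (TempO-Seq, in which detector oligonucleotides that meet on a transcript are ligated and counted), and they account for 13 of 30146 probes and 9 of 21450 gene symbols. By probes, 5 members have 1 and 4 (Nr5a2, Hnf4a, Gata4 and Gata6) have 2, of which the more abundant is given unless the second is named. The libraries were made from whole pancreas of C57Bl/6 mice. The groups, as labelled, were 4 TCDD dams, 4 TCDD female pups, 4 TCDD male pups, 4 control dams, 3 control female pups and 3 control male pups. TCDD is a long-lived dioxin and a ligand of the aryl hydrocarbon receptor; dams received 20 ng/kg/d TCDD, or corn oil as control, in 2 subcutaneous injections per week that began before mating and ended at birth, when both generations were sampled. Pups were exposed only through the dam.

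Acinar cells, which make and secrete the digestive enzymes, are kept by a small network of these factors. PTF1A, a basic helix-loop-helix protein, pairs with a common E protein and with RBPJ in the pancreatic bud; in acini RBPJ is replaced by its pancreas-restricted paralogue RBPJL, and the complex then drives the enzyme genes as well as Ptf1a and Rbpjl themselves. BHLHA15 (MIST1) scales up the secretory machinery, and the nuclear receptor NR5A2 works beside the PTF1 complex on enzyme genes. GATA4, GATA6, PDX1, FOXA2 and HNF4A act earlier and more broadly: they specify the foregut and the pancreatic progenitors, and several of them also act in liver, gut or islets.

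Stage genes split the 22 libraries into 8 of adult type (summed Pnlip count above summed Afp count) and 14 of newborn type (summed Afp above summed Pnlip), and the members are described across these classes because the stage labels conflict with them. Afp, a fetal plasma protein, stood at 0 to 1.25 counts-per-million of the library total (CPM) in adult-type and 468 to 1487 CPM in newborn-type libraries. Pnlip, the pancreatic lipase, stood at 40765 to 48925 CPM in adult-type and 22.3 to 91.6 CPM in newborn-type libraries. No library lay near the threshold, with the log2 ratio of Afp to Pnlip at most -15.1 in adult-type and at least 3.05 in newborn-type libraries. The adult-type libraries are those labelled TCDD dams 8 and 11, TCDD female pup 6, TCDD male pups 8, 10 and 11, and control dams 5 and 7. The newborn-type libraries carry the labels TCDD dams 6 and 10, TCDD female pups 8, 10 and 11, TCDD male pup 6, control dams 2 and 4 and all 6 control pups. The stage label was at odds with these genes in 8 libraries and the sex label with Y-linked transcripts in 10, so that 13 libraries went against at least 1 label. Library totals were 11223816 to 34911410 counts, and 3 counts, taken here as an approximate upper limit for a count of 0, equal 0.0859 to 0.267 CPM. Both the classes and the members were chosen by measured values of these libraries, so differences between the classes are given as a description with no test.

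The 5′ flanks of the 3 genes whose class pattern differs from the rest (described below) are shown first, because the PTF1 complex reads a paired site: an E-box for PTF1A and its E protein, and a nearby core for RBPJ or RBPJL. Each line holds the 250 bases before the RefSeq start on GRCm38.p6, plus strand, and capitals mark the letters CANCTG (E-box) and TGGGAA (RBPJ core) on either strand; sites of the 2 motifs do not overlap in these windows.
Rbpjl, chr2:164402944-164403193: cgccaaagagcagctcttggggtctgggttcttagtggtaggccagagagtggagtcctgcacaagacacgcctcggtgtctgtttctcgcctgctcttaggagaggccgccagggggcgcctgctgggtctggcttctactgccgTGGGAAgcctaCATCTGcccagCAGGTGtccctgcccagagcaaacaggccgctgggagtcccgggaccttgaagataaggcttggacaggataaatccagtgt
Ptf1a, chr2:19445413-19445662: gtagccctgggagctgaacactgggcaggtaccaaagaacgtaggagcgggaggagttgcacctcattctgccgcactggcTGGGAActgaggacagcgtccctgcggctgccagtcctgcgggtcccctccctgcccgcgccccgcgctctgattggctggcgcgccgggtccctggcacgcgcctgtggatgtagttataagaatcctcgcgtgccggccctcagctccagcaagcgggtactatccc
Bhlha15, chr5:144190036-144190285: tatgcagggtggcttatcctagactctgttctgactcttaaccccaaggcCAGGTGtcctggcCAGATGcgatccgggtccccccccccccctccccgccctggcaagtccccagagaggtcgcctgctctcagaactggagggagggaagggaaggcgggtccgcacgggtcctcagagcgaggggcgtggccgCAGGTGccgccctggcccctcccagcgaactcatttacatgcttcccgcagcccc
The Rbpjl window holds an RBPJ core at -104 and E-boxes at -93 and -82, counted from the start to the first base of the motif. The Ptf1a window holds 1 RBPJ core at -169 and no E-box, and the Bhlha15 window holds E-boxes at -200, -187 and -55 and no RBPJ core. Such letters are common: of 32851 promoter windows of this length, 44.8% hold CANCTG, 21.6% hold TGGGAA and 3.5% hold both within 30 bases of each other, as Rbpjl does. Windows were available for 7 of the 9 members, 11 windows in all. E-boxes were not particular to Rbpjl and Bhlha15: each window of Nr5a2, Hnf4a and Pdx1 held at least 1, while no Foxa2 window did. No window of these other members held an RBPJ core. A match is a run of letters and not a measured binding site.

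How a member compares between the classes depends on the scale, because secreted enzymes fill the adult-type libraries. The 104 most abundant or enzyme-coding probes took 87.5 to 91.0% of the counts in adult-type and 62.5 to 74.8% in newborn-type libraries, which leaves less of the total for every other transcript. Over 15670 probes (mean count 10 or more, median above 0 in both classes), the log2 ratio of class medians, adult type over newborn type, had a median of -1.97 on CPM and lay below 0 for 98.03% of probes. After scaling by trimmed mean of M-values (TMM), which sets the bulk of the probes level, that median was -0.09. CPM therefore gives a transcript's share of the library, while TMM-scaled CPM and ratios between members within 1 library show its place relative to other transcripts. In whole tissue, fewer cells of a type and less RNA per cell cannot be told apart.

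Relative to other transcripts, 3 members stood higher in adult-type pancreas: Ptf1a, Rbpjl and Bhlha15 had TMM-scaled log2 ratios of class medians of 1.33, 1.27 and 2.09, where CPM gave -0.57, -0.64 and 0.07. The other 5 detected members, Nr5a2, Hnf4a, Gata4, Gata6 and Foxa2, lay between -0.39 and 0.05 on the same scale, near the median of all probes. On CPM the ratios of these 5 ran from -2.21 to -1.77, and Nr5a2, Hnf4a and Gata6 were lower in every adult-type library than in any newborn-type one.

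**Figure D1:**
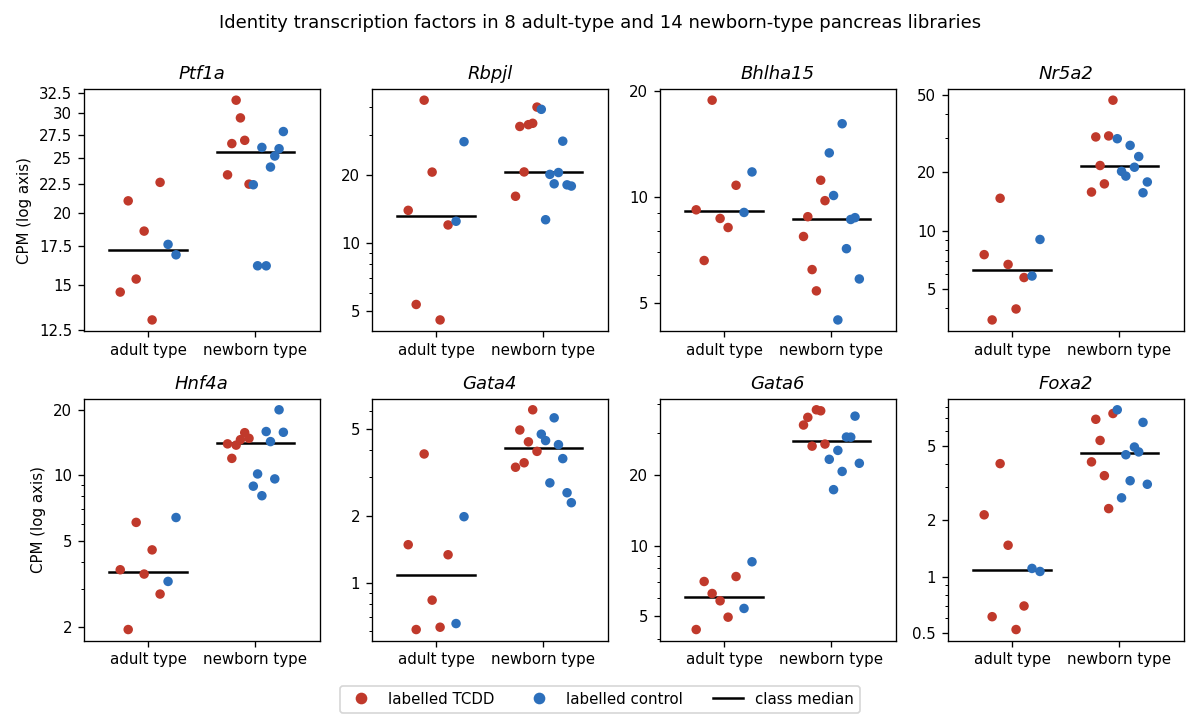
CPM (log axis, own range per gene) of the 8 detected members in the 8 adult-type (left) and 14 newborn-type (right) libraries; points are libraries, red labelled TCDD and blue labelled control, and lines are class medians. Nr5a2, Hnf4a and Gata6 do not overlap between the classes, while Ptf1a, Rbpjl and Bhlha15 do.

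Ptf1a, the defining subunit of the PTF1 complex, stood at 13.0 to 22.7 CPM (median 17.3) in adult-type and 16.2 to 31.6 CPM (median 25.6) in newborn-type libraries. The classes overlapped on CPM, with 5 of the 8 adult-type libraries inside the newborn-type range. On TMM-scaled CPM the values were 26.2 to 53.9 (median 39.1) in adult-type and 10.5 to 20.3 (median 15.5) in newborn-type libraries, with no overlap. Within the adult type the highest Ptf1a value was 1.74 times the lowest on CPM and 2.05 times on TMM-scaled CPM.

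Rbpjl, the acinar partner of PTF1A, ranged from 4.54 to 42.8 CPM (median 13.2) in adult-type and from 12.6 to 39.9 CPM (median 20.5) in newborn-type libraries. The adult-type libraries differed 9.41-fold among themselves and spanned the whole newborn-type range. Their TMM-scaled CPM of 12.7 to 73.2 (median 32.0) overlapped the 10.5 to 22.2 (median 13.2) of the newborn type, since 2 adult-type libraries, TCDD dam 8 and TCDD male pup 11, lay inside it.

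Bhlha15 was the 1 member whose median share of the library was no lower in the adult type. It stood at 6.61 to 18.9 CPM (median 9.13) in adult-type and 4.48 to 16.2 CPM (median 8.69) in newborn-type libraries, with broad overlap. On TMM-scaled CPM it stood at 16.3 to 32.3 (median 22.5) in adult-type and 2.83 to 10.5 (median 5.27) in newborn-type libraries, again with no overlap. Of all probes, 98.5% had a smaller TMM-scaled class ratio than Bhlha15, 95.3% than Ptf1a and 95.0% than Rbpjl.

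Nr5a2, the nuclear receptor that works beside PTF1, stood at 3.49 to 14.7 CPM (median 6.29) in adult-type and 15.7 to 46.8 CPM (median 21.4) in newborn-type libraries. Its second probe stood at 5.85 to 13.1 CPM in adult-type and 14.2 to 26.3 CPM in newborn-type libraries. Both probes were lower in each adult-type library than in any newborn-type one, with log2 ratios of -1.77 and -1.51 on CPM. After TMM scaling both overlapped, with log2 ratios of -0.01 and 0.25, so Nr5a2 stood with the bulk of the probes and not with the PTF1 subunits.

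Hnf4a, a nuclear receptor of liver, gut and pancreas, stood at 1.96 to 6.40 CPM (median 3.60) in adult-type and 8.06 to 20.0 CPM (median 14.1) in newborn-type libraries. Gata6, the zinc-finger factor with the higher counts of the pair, stood at 4.40 to 8.53 CPM (median 6.04) in adult-type and 17.3 to 37.7 CPM (median 27.9) in newborn-type libraries. Neither overlapped between the classes on CPM, and the same held for their second probes, at log2 ratios of -1.78 and -2.20. The TMM-scaled log2 ratios were -0.01 for Hnf4a and -0.39 for Gata6, and there the classes overlapped.

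Gata4, its close relative, was sparser, at 0.612 to 3.83 CPM (median 1.08) in adult-type and 2.30 to 6.09 CPM (median 4.08) in newborn-type libraries. Its lowest adult-type count was 10, and the second probe, with 0 to 8 counts in adult-type libraries, was too sparse to compare. Foxa2, a pioneer factor of the endoderm, stood at 0.522 to 4.01 CPM (median 1.09) in adult-type and 2.31 to 7.78 CPM (median 4.55) in newborn-type libraries, likewise from as few as 10 counts. For both, 7 of the 8 adult-type libraries lay below the newborn-type range, and the exception was TCDD female pup 6.

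Pdx1, the homeodomain factor of pancreatic progenitors and beta cells, had 0 counts by its single probe in all 22 libraries. The approximate upper limit taken for a count of 0 is 0.0859 to 0.267 CPM, by library, and covers counting error only. Islet markers were present: 10 of them summed to 106 to 377 CPM in adult-type and 1223 to 2420 CPM in newborn-type libraries, and Nkx6-1, another beta cell factor, stood at 0.983 to 3.57 CPM in the newborn type. Whether the Pdx1 probe detects its transcript was not tested.

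Counted over the 11 member probes (of 13) whose mean count reached 10, 6 were lower in the adult type without overlap on CPM, against 69.7% of all 16143 such probes, and 0 were higher, against 0.421%. On TMM-scaled CPM 0 of the 11 were lower without overlap, against 12.5% of all probes, and 2, those of Ptf1a and Bhlha15, were higher, against 8.46%. The members were chosen with class values known, so nothing is read from these counts.

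**Figure D2:**
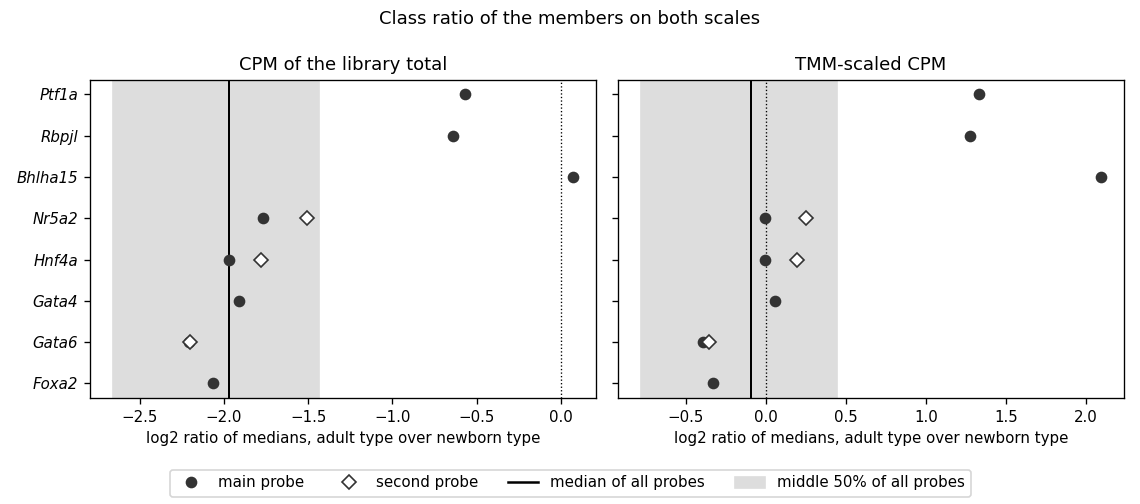
Log2 ratio of class medians, adult type over newborn type, on CPM (left) and TMM-scaled CPM (right); filled points are main probes, open diamonds second probes, the line is the median of all probes and the band their middle 50%. Ptf1a, Rbpjl and Bhlha15 lie right of the band on both scales, and the other main probes lie inside it.

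Ratios of members within a library need no scaling factor but depend on the denominator. Gata6 served as denominator, picked after its values were seen because it had 74 to 127 counts in adult-type and 266 to 712 in newborn-type libraries. It also had the lowest class ratio of the detected main probes on both scales (-2.21 on CPM, -0.39 after TMM), which enlarges each adult-over-newborn fold below. The ratio of Ptf1a to Gata6 counts was 1.98 to 3.31 (median 3.03) in adult-type and 0.719 to 1.25 (median 0.834) in newborn-type libraries, a 3.63-fold difference of medians with no overlap. Bhlha15 to Gata6 was 0.939 to 3.02 (median 1.57) in adult-type and 0.143 to 0.784 (median 0.257) in newborn-type libraries, 6.13-fold and also without overlap. Rbpjl to Gata6 differed 3.25-fold, at 0.757 to 6.84 in adult-type and 0.494 to 1.68 in newborn-type libraries, with overlap.

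Against the same denominator the remaining members moved little between the classes. The median ratio to Gata6, adult type over newborn type, was 1.31-fold for Nr5a2, 1.47-fold for Hnf4a, 1.19-fold for Gata4 and 0.997-fold for Foxa2, and all 4 overlapped. Rbpjl and Ptf1a, which share a complex, did not keep a fixed ratio: Rbpjl to Ptf1a was 0.253 to 2.79 in adult-type and 0.640 to 1.77 in newborn-type libraries.

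**Figure D3:**
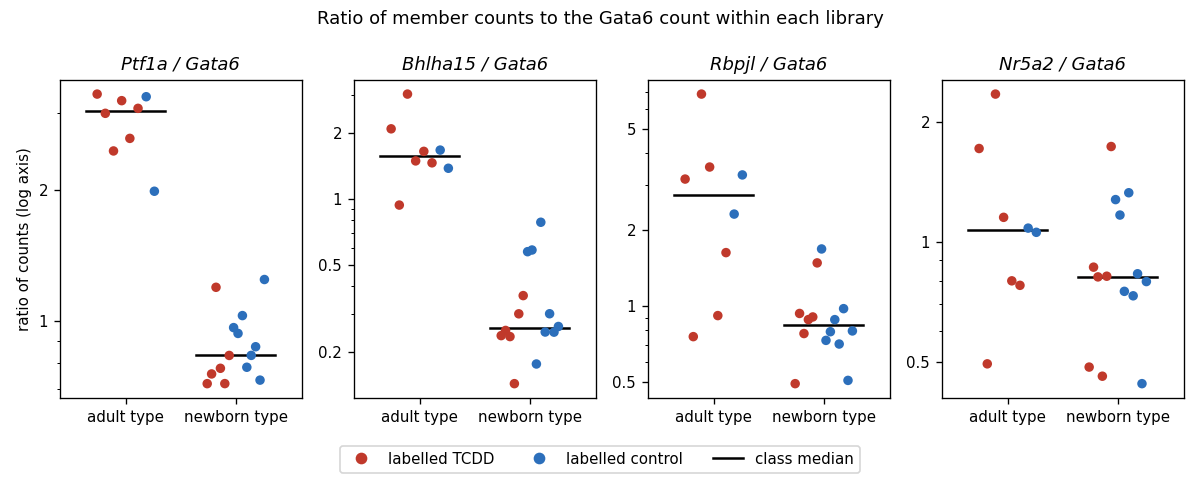
Ratio of member counts to the Gata6 count of the same library (log axis), adult type left and newborn type right, red labelled TCDD, blue labelled control, lines at class medians. Ptf1a and Bhlha15 separate the classes, Rbpjl and Nr5a2 overlap.

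Rbpj and the E proteins, the partners of PTF1A other than RBPJL, had lower medians in the adult type on both scales. Rbpj, the Notch effector that RBPJL replaces, stood at 0.0651 to 0.896 CPM in adult-type libraries, from 1 to 14 counts, and at 1.64 to 4.46 CPM in newborn-type libraries, from 25 to 80 counts. The ratio of Rbpjl to Rbpj was 14.5 to 191 (median 51.1) in adult-type and 4.98 to 15.9 (median 8.70) in newborn-type libraries. The classes overlapped slightly, and the adult-type ratios rest on few Rbpj counts. Of the E proteins, Tcf12 stood at 10.5 to 16.1 CPM in adult-type and 39.4 to 87.0 CPM in newborn-type libraries (TMM-scaled log2 ratio -0.37), and Tcf4 at 6.11 to 9.60 CPM in adult-type and 27.0 to 39.7 CPM in newborn-type libraries (-0.27). Tcf3 was near the detection limit, at 0 to 0.122 CPM in adult-type and 0.139 to 0.949 CPM in newborn-type libraries.

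Genes of the Id family, whose products bind E proteins and keep them off DNA, had the lowest ratios of this list. Id2 stood at 2.30 to 5.26 CPM in adult-type and 31.1 to 53.8 CPM in newborn-type libraries, with a TMM-scaled log2 ratio of -1.69. Id3 and Id4 had TMM-scaled log2 ratios of -1.41 and -3.55, and Id1 had a median of 0 CPM in adult-type and 0.0522 CPM in newborn-type libraries. The 6 of 8 genes with a mean count of 10 or more had a TMM-scaled median of -1.18, against -0.09 for all probes.

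Most genes known as targets of the acinar factors stood higher in the adult type on TMM-scaled CPM, as Ptf1a and Bhlha15 did. These lists were chosen with earlier results of these data known, so their counts are a description only. Of 21 digestive enzyme genes with a mean count of 10 or more, 19 were higher there without overlap, against 8.46% of all probes. The median log2 ratio of the 21 was 2.54, with Pnliprp1 at -0.04. On CPM 11 were higher, against 0.421% of all probes, and 3 lower (Ctrb1, Pnliprp1 and Spink1), against 69.7%. Pnlip, one of the 19, also defines the classes. Of 6 genes known from mouse to fall in acini that lack Bhlha15, 5 had enough counts (Rab3d, Rab26, Gjb1, Copz2 and Tmed6). All 5 were higher without overlap on TMM-scaled CPM, against the same 8.46% of all probes, with a median log2 ratio of 1.56. On CPM their median was -0.34 and Rab3d was lower. Gjb1, a gap junction protein, stood at 2.79 to 6.28 CPM in adult-type and 2.46 to 7.22 CPM in newborn-type libraries, and Rab3d, a GTPase of secretory granules, at 75.8 to 102 CPM in adult-type and 127 to 192 CPM in newborn-type libraries. Their TMM-scaled log2 ratios were 1.86 and 0.89. Xbp1, the unfolded protein response factor upstream of Bhlha15, had 98.4 to 230 CPM in adult-type and 202 to 357 CPM in newborn-type libraries and a TMM-scaled log2 ratio of 0.58, and the list of 5 secretory factors had a median of 0.51 on that scale and -1.36 on CPM.

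Progenitor, duct and endocrine factors had lower medians in the adult type on either scale. Sox9, of ducts and progenitors, stood at 0 to 0.291 CPM in adult-type and 0.267 to 1.66 CPM in newborn-type libraries, and Hes1, a Notch target, at 0 to 0.781 CPM in adult-type and 0.907 to 4.07 CPM in newborn-type libraries. The progenitor and duct list had a TMM-scaled median log2 ratio of -1.30 and the endocrine list -2.61. Of 6 other GATA genes and cofactors, 3 had a mean count of 10 or more, at TMM-scaled log2 ratios of -3.74 for Zfpm2, -2.14 for Gata2 and 0.77 for Zfpm1, and Gata1, below that count, had 1.87.

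Markers of other cell types differed in level between the classes, and their counts of genes lower without overlap on CPM stand beside the 69.7% of all probes that were lower in this way. Hepatocyte markers (12 genes, of which 11 had a mean count of 10 or more and were lower in the adult type without overlap on CPM) summed to 3.20 to 16.9 CPM in adult-type and 376 to 1148 CPM in newborn-type libraries, and intestinal markers (10 genes, 4 of 6 lower in this way) to 0.313 to 3.72 CPM in adult-type and 97.7 to 854 CPM in newborn-type libraries. Hnf4a, Foxa2, Nr5a2, Gata4 and Gata6 are also known from liver or gut. Mesenchymal markers (8 of 8 lower) summed to 30.5 to 74.5 CPM in adult-type and 1019 to 1622 CPM in newborn-type libraries. Duct markers (5 of 7 lower, with Car2 at 0 in the adult type) summed to 20.6 to 37.0 CPM in adult-type and 207 to 398 CPM in newborn-type libraries, and leukocyte markers (3 of 8 lower) to 2.41 to 48.3 CPM in adult-type and 49.9 to 138 CPM in newborn-type libraries. Acinar markers summed to 243625 to 266328 CPM in adult-type and 131087 to 173660 CPM in newborn-type libraries, while gastric markers were at or near 0 in both. The acinar list includes Pnlip, which also defines the classes, so part of the difference in the acinar sums follows from the class rule. On TMM-scaled CPM, where 12.5% of all probes were lower without overlap, so were 8 of 11 hepatocyte, 4 of 6 intestinal, 6 of 8 mesenchymal, 4 of 7 duct and 0 of 8 leukocyte markers. The part of these other cells in the members' class values was not tested.

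Among the 8 adult-type libraries, the members did not rise and fall as 1 block. TCDD female pup 6 had the highest CPM for 5 of the 8 detected members: Rbpjl (42.8), Bhlha15 (18.9), Nr5a2 (14.7), Gata4 (3.83) and Foxa2 (4.01). It did not for Ptf1a (15.3), Gata6 (6.25) or Hnf4a (6.08). Xbp1 was also highest there, at 230 CPM, against 98.4 to 129 CPM in the other 7. On TMM-scaled CPM this library was again highest for the same 5 members and was the lowest for 2 others, Ptf1a (26.2) and Gata6 (10.7). Its scaling factor of 0.584 was the highest of the adult type (0.358 to 0.584).

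At the other end, TCDD dam 8 had the lowest CPM for 4 members and TCDD male pup 11 for 3. Rbpjl stood at 5.32 CPM in TCDD dam 8 and 4.54 CPM in TCDD male pup 11, while Ptf1a stood at 21.0 CPM in TCDD dam 8 and 13.0 CPM in TCDD male pup 11. Control dam 7 was highest for Hnf4a (6.40 CPM) and Gata6 (8.53 CPM), but on TMM-scaled CPM TCDD male pup 11 was highest for Hnf4a (12.7) and TCDD male pup 8 for Gata6 (17.5). Control dam 7 also had the highest summed islet (377 CPM) and leukocyte (48.3 CPM) markers of the 8, and TCDD female pup 6 the highest mesenchymal (74.5 CPM) and endothelial (21.5 CPM) sums, whose part in these levels was not tested.

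**Figure D4:**
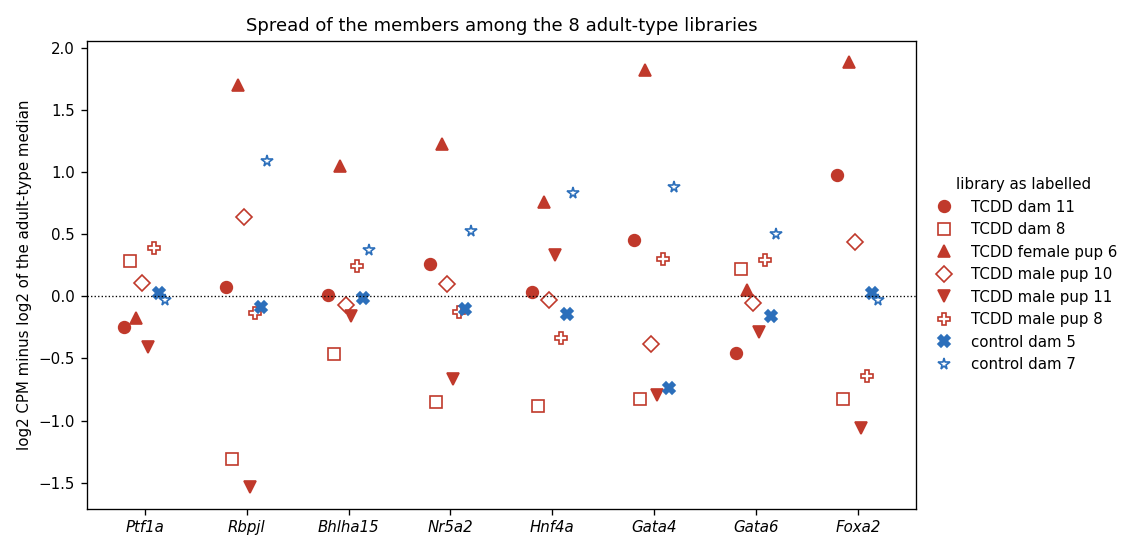
Log2 CPM of each member minus the log2 of its adult-type median, for the 8 adult-type libraries as labelled (red TCDD, blue control, a symbol per library). TCDD female pup 6 is highest for Rbpjl, Bhlha15, Nr5a2, Gata4 and Foxa2, and Ptf1a has the narrowest spread on CPM, which TMM-scaled CPM does not keep (2.05-fold, against 1.64-fold for Gata6).

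In the newborn type the highest CPM was 1.95 times the lowest for Ptf1a, 3.16 times for Rbpjl and 3.62 times for Bhlha15, against 1.74, 9.41 and 2.86 times in the adult type, so neither class was the more uniform for all 3. TCDD male pup 6 had the highest Rbpjl (39.9 CPM) and Nr5a2 (46.8 CPM), and control female pup 4 the highest Bhlha15 (16.2 CPM) with a low Ptf1a (16.2 CPM), so that no single library led the members.

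Probes whose pattern over the 22 libraries was most like each member's were found by the root mean square difference of centred log2(TMM-scaled CPM + 0.5). For Ptf1a these were Tuba4a, Mien1 and Kmt5a, with differences of 0.19 beside a spread of 0.70 for Ptf1a itself. For Bhlha15 they were Lifr, Mctp2 and Slc41a1, at 0.31 to 0.35 beside a spread of 1.04, and for Rbpjl Irak1, Unc79 and Epn1, at 0.29 to 0.33 beside 0.77. Over the 22 libraries these patterns include the difference between the classes. Within the newborn type alone, the nearest probes were others: Taf10, Ctsc and Arsb for Ptf1a, and Rufy2, Arsj and Plcxd3 for Bhlha15. For Rbpjl they were Slc16a9, Eya3 and Ctnnd1 there. For Nr5a2, Aff4 (0.19) was nearer than the gene's own second probe (0.39), and for Gata6, Tfdp1 (0.19) was nearer than its second probe (0.23). The spread of Nr5a2 itself was 0.38 and that of Gata6 0.30, so both profiles were flat on this scale.

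Whether the TCDD label went with the members' levels was tested within each class, since the treatment label played no part in the class rule. Since 13 libraries went against a stage or sex label and the treatment labels were not checked here, each fold change is that of the label. The edgeR quasi-likelihood test with Benjamini-Hochberg adjustment over all probes called 0 of 11 member probes in the adult type, where 0% of 13513 probes were called and 388 had an unadjusted p under 0.05. It called 0 of 12 in the newborn type, where 0% of 17109 were called and 554 had an unadjusted p under 0.05. DESeq2 also called 0 in both classes. Some libraries share a litter, and the correlation between them was 0.071 in the adult type and 0.013 in the newborn type.

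In the newborn type Ptf1a stood at 22.5 to 31.6 CPM (median 26.7) in the 6 libraries labelled TCDD and 16.2 to 27.8 CPM (median 24.7) in the 8 labelled control, a log2 fold change of 0.07 ± 0.123 (SE). Rbpjl stood at 16.0 to 39.9 CPM (median 33.02) in TCDD and 12.6 to 38.96 CPM (median 19.1) in control libraries, 0.29 ± 0.165, which was the highest of the member probes. Bhlha15 stood at 5.41 to 11.2 CPM (median 8.27) in TCDD and 4.48 to 16.2 CPM (median 8.69) in control libraries, -0.35 ± 0.220, the lowest. All 3 overlapped between the labels, and none passed (adjusted p = 1.0 for each, edgeR).

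Gata6 stood at 26.4 to 37.7 CPM (median 33.8) in newborn-type TCDD libraries and 17.3 to 35.5 CPM (median 24.3) in control ones, a log2 fold change of 0.22 ± 0.122. Its second probe was the 1 member probe with an unadjusted p under 0.05 here (0.25 ± 0.105). Nr5a2, Gata4, Foxa2 and Hnf4a had log2 fold changes of 0.13 ± 0.171, 0.02 ± 0.201, -0.06 ± 0.232 and -0.02 ± 0.175.

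In the adult type, only control dams 5 and 7 carried the control label against 6 TCDD libraries, which limits the precision. Ptf1a stood at 13.0 to 22.7 CPM (median 17.0) in TCDD libraries and at 17.6 and 16.9 CPM in control dams 5 and 7, a log2 fold change of 0.16 ± 0.248. Rbpjl stood at 4.54 to 42.8 CPM (median 12.9) in TCDD libraries and at 12.4 and 28.0 CPM in control dams 5 and 7, -0.23 ± 0.515, and without control dam 7 the value was 0.27. Bhlha15 stood at 6.61 to 18.9 CPM (median 8.95) in TCDD libraries and at 9.05 and 11.8 CPM in the control dams, 0.10 ± 0.245. Foxa2 had the highest value, 0.56 ± 0.629, and the second Gata6 probe the lowest, -0.29 ± 0.257. None passed. On CPM the TCDD values spanned the control ones for each of these, while on TMM-scaled CPM the second Gata6 probe stood at 5.89 to 7.87 in the TCDD libraries and at 10.4 in control dam 5.

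The difference of the TCDD label effect between the classes, adult type minus newborn type, was also tested, and 0 of 12 member probes passed, as did 0% of 19209 probes (1523 at an unadjusted p under 0.05; DESeq2 called 23, none a member). The member values ran from -0.53 ± 0.227 for the second Gata6 probe (adjusted p = 0.561, edgeR) to 0.63 ± 0.614 for Foxa2. For Bhlha15 it was 0.46 ± 0.384 and for Rbpjl -0.52 ± 0.484.

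**Figure D5:**
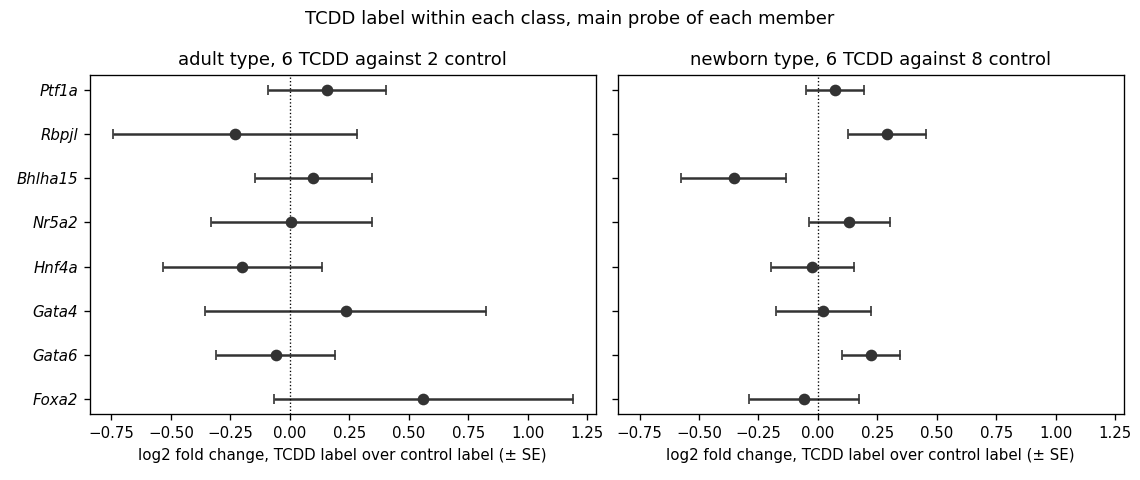
Log2 fold change of the TCDD over the control label (± SE, edgeR) for the main probe of each member, adult type left (6 against 2 libraries) and newborn type right (6 against 8). No member passed in either class, and the adult-type errors are wider.

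By the labels alone, the groups mix the classes. In the dams, each treatment held 2 adult-type and 2 newborn-type libraries, and the members' log2 fold changes, TCDD over control, ran from -0.58 ± 0.522 for Rbpjl to 0.30 ± 0.216 for Gata6. None of the 11 member probes tested passed, with 0% called over 15594 probes (150 at an unadjusted p under 0.05, DESeq2 0). In the female pups, where TCDD female pup 6 alone was of adult type, all 12 member probes tested lay above 0, up to 1.32 ± 0.575 for Rbpjl, and none passed (0% of 17513 called, 299 at an unadjusted p under 0.05, DESeq2 0).

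In the male pups 3 of the 4 TCDD libraries were of adult type and none of the 3 controls was, so the TCDD label and the class cannot be told apart there. Bhlha15 stood at 10.8, 8.70, 8.20 and 9.78 CPM in TCDD male pups 8, 10, 11 and 6 and at 8.64, 8.75 and 5.85 CPM in control male pups 2, 4 and 7, and its log2 fold change was 1.89 ± 0.492 (adjusted p = 0.273, edgeR). Ptf1a and Rbpjl had 1.10 ± 0.428 and 1.01 ± 0.413, and the other members lay between -0.31 and 0.43. None of the 11 member probes passed with edgeR, with 0% of 16176 called (2703 at an unadjusted p under 0.05). DESeq2 called 505 of the same 16176 probes, among the members Bhlha15 (1.87 ± 0.504, adjusted p = 0.0124). Without TCDD male pup 6, the newborn-type library of its group, 3 adult-type libraries are compared with 3 newborn-type ones. There edgeR called 6451 probes, beside 16176 tested with that library kept. Among those called were 3 members, Bhlha15 (2.21), Ptf1a (1.39) and Rbpjl (1.12). With so large a part of all probes called, nothing is read from these member calls.

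Dams were set against pups by their labels with the treatment as a covariate, although 4 libraries of each label went against their stage genes. The log2 fold changes, dam over pup, ran from -0.21 ± 0.180 for Hnf4a to 0.58 ± 0.479 for Bhlha15, and 0 of 12 member probes passed, as did 0% of 16760 probes (339 at an unadjusted p under 0.05; DESeq2 called 6, none a member).

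The lists around the members gave no calls either. The 8 lists of partners, targets and related factors had 0 genes past the threshold in either direction in all 7 edgeR fits. Each of these fits called 0% of all probes, so the absence of calls is not particular to the lists. For the TCDD label, list medians in the adult type ran from -0.55 for 1 gene of the GATA family and cofactors to 0.46 for 3 endocrine factors, with 0.17 for 21 digestive enzymes and 0.09 for the PTF1 partners and E protein inhibitors, beside 0.016 over all probes. In the newborn type they ran from -0.13 for the 21 enzymes to 0.34 for 3 genes of the GATA family and cofactors, beside -0.0013 over all probes.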

How the data were processed

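Whole pancreas RNA was assayed with a TempO-Seq mouse panel on a NextSeq500, per the labels' protocols. The deposited table holds raw probe counts for 22 libraries. Per the submitters' processing notes, bcl2fastq 2.17.1.14 was run; which aligner and build followed is not given in the sources used here. Counts are reads, not molecules. CPM is counts-per-million of the library total; TMM-scaled CPM uses edgeR's effective total. Tests used edgeR 4.0.16 in R 4.3.3 (filterByExpr, TMM, glmQLFit and glmQLFTest, Benjamini-Hochberg, threshold 0.05), fitted over all probes of the libraries in each comparison and checked on simulated counts. Alternatives used DESeq2 1.42.0 and limma 3.58.1 (voom).

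Named genes were all member probes, the main probe being that of highest mean CPM, fixed genes of related lists, and the 3 probes most like each member with a mean CPM of at least 1. The members and lists were chosen with earlier results of these data known. The labels' numbers mark litters, so fits with the litter as a block were made. Replicates are separate animals per the labels. Promoters are RefSeq's, on GRCm38.p6. Digestive enzymes Amy2a2, Amy2b and Clps were not in the table. Some genes of the related lists are not reported here.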

Additional observations from a re-analysis of the deposited data

Results flagged for a closer look

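Each library was set against the rest of its group for every member probe with counts, in 48 groups. For each probe the groups were the adult type, its libraries labelled TCDD, and the newborn-type libraries labelled TCDD or control. The gap of the highest or lowest library to its neighbour passed Dixon's 95% limit in 9. Chance flags about 1 in 20 groups. All 9 were high values of the same library, TCDD female pup 6. They are not independent of each other, since the same library recurs and some probes share a gene. The adult-type TCDD group also lies within the adult-type group, so a probe can be flagged in both. The limit was applied to CPM alone, and this library had the highest scaling factor of the adult type (0.584). On TMM-scaled CPM, where the limit was not applied, Bhlha15 stood at 32.3 in this library and next at 25.7 in TCDD male pup 8. Foxa2 stood at 6.87 and next at 5.30 in TCDD dam 11, and Gata4 at 6.56 and next at 3.72 in control dam 7.

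Among all 8 adult-type libraries, Bhlha15 stood at 18.9 CPM in TCDD female pup 6, with the other 7 at 6.61 to 11.8. The second Nr5a2 probe stood at 13.1 CPM (others 5.85 to 8.14), Gata4 at 3.83 CPM (others 0.612 to 1.99) and Foxa2 at 4.01 CPM (others 0.522 to 2.14). Among the 6 adult-type libraries labelled TCDD, the same library stood apart for Bhlha15, for Nr5a2 by its main probe (14.7 CPM, others 3.49 to 7.54) and by its second probe, for Gata4, and for the second Hnf4a probe (3.54 CPM, others 1.49 to 1.96). This library is labelled as a pup and had Pnlip above Afp. Ptf1a, at 15.3 CPM, was below the adult-type median of 17.3 in it, and Gata6 was highest there by its second probe (4.48 CPM) but not by its main probe (6.25 CPM).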

How the results depend on the processing

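The class ratios depend on the scale: in the order TMM, DESeq2 size factors and a total without the 104 abundant or enzyme probes, the log2 ratios were 1.33, 1.30 and 1.16 for Ptf1a, 1.27, 1.24 and 1.11 for Rbpjl, 2.09, 2.07 and 1.90 for Bhlha15, -0.0096, -0.039 and -0.15 for Nr5a2, 0.055, 0.033 and -0.12 for Gata4, -0.39, -0.42 and -0.58 for Gata6, -0.33, -0.38 and -0.44 for Foxa2 and -0.0084, -0.034 and -0.17 for Hnf4a, against the CPM values above. Leaving out each library in turn (added after the data were seen) kept the CPM ratios within -0.60 to -0.54 for Ptf1a, -0.72 to -0.56 for Rbpjl, 0.058 to 0.083 for Bhlha15, -1.87 to -1.67 for Nr5a2, -2.30 to -1.61 for Gata4, -2.26 to -2.16 for Gata6, -2.09 to -2.04 for Foxa2 and -2.003 to -1.94 for Hnf4a. The 9 libraries in accord with their labels gave -0.10 for Bhlha15 and otherwise the same sign.

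No setting within a class called a member. The libraries in accord with their labels were few: 3 TCDD and 2 control in the newborn type, and 2 TCDD and 2 control in the adult type. Over all probes, dropping the low-count filter called 112 probes in the adult type, 9 for the difference between classes and 9 for dams against pups; leaving out each library called 0 to 2 in the adult type. DESeq2 called 23 for the difference, 6 for dams against pups and 505, with 1 member, in male pups. Leaving out 1 library of the male pups gave 0 to 6451 probes, with 0 to 3 members, beside 16176 probes tested with all libraries kept. Libraries in accord with the stage label leave TCDD male pup 6 as the only TCDD library of the male pups, so nothing is read from that setting. Member fold changes that turned in sign, none of them past the threshold, were these: in the newborn type Hnf4a with summed probes (0.048) or the litter block (0.020) and Foxa2 in label-accord libraries (0.48); in the adult type Nr5a2 without a filter (-0.0033), with summed probes (-0.014), the litter block (-0.050) or label-accord libraries (-0.18), where Bhlha15 (-0.16) and Gata4 (-0.044) turned too. Leave-one-out ranges in the newborn type were -0.012 to 0.13 for Ptf1a, -0.069 to 0.23 for Nr5a2, -0.084 to 0.13 for Gata4, -0.19 to 0.096 for Foxa2 and -0.10 to 0.086 for Hnf4a; in the adult type, -0.016 to 0.35 for Ptf1a, -0.60 to 0.27 for Rbpjl, -0.024 to 0.19 for Bhlha15, -0.20 to 0.17 for Nr5a2, -0.27 to 1.03 for Gata4, -0.23 to 0.13 for Gata6 and -0.50 to 0.18 for Hnf4a. The litter block changed no call: it gave 0 probes in both classes and in dams against pups. Causes were not tested. In the adult type 2 control libraries, and counts as low as 10 for Gata4 and Foxa2, limit what could be detected.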
